A study of Homo sapiens with 10 samples.

Results

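AP-1 is a dimeric transcription factor built from proteins of the FOS family (FOS, FOSB, FOSL2) and the JUN family (JUN, JUNB, JUND). Together with EGR1, ATF3, IER2 and the phosphatase gene DUSP1 these genes belong to the immediate early and early stress response. The 10 genes were selected on the measured levels of FOS and JUNB, which were lower in the SAMHD1-KO clone A1 than in wild-type (WT) cells in experiments 10 and 11. The other 8 were added as members of the same families or of the same early response. All 10 were among the 13920 genes in the count table. The level of FOS and JUNB in that contrast is therefore how the genes were chosen and is given as a description. RNA was sequenced from spheroids, three-dimensional aggregates grown on low-adherence plates for 4 days, of the breast cancer line labelled T47D. WT spheroids carried no SAMHD1 edit, and clones A1 and A2 were each derived after transfection of a CRISPR-Cas9 plasmid directed at exon 5 of SAMHD1, a gene for a nucleotide-degrading enzyme. Each clone is 1 line, so its values may hold traits of that line other than the edit. There were 10 libraries: 4 of WT and 4 of clone A1, each from experiments 10, 11, 15 and 16, and 2 of clone A2 from experiments 15 and 16. Clones A1 and A2 are called A1 and A2 from here on. The labels call the experiment number a replicate, and state neither what changed between experiments nor which cultures were shared, so p-values measure the spread between these libraries.

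Immediate early genes are transcribed within minutes of a growth factor, calcium or stress signal without the need for new protein. The signal reaches their promoters through the ERK, JNK and p38 kinases, which act on serum response factor (SRF) and its partners at CArG boxes and on CREB and ATF proteins at cyclic AMP response elements (CRE). The FOS and JUN proteins then bind the TPA response element (TRE) of later genes, and feedback genes such as the DUSP phosphatases shut the kinases off. In breast epithelial cells AP-1 is known for its part in growth, invasion and the response to culture stress.

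The promoter sequences are shown for 5 members whose levels, described further on, behaved differently. FOS and FOSB were highest in WT of experiments 10 and 11. EGR1 rose in both clones in experiments 15 and 16 but fell between the experiment pairs. FOSL2 rose in both clones in experiments 15 and 16 only, and JUN stayed nearly level. Each sequence is the 250 bases before the start of transcription, read 5′ to 3′ on the strand of the gene, from RefSeq on GRCh38.p14. Capitals mark TATAAA, the CRE core TGACG and the CArG box, the core on either strand.
FOS, plus strand, chr14:75278578-75278827: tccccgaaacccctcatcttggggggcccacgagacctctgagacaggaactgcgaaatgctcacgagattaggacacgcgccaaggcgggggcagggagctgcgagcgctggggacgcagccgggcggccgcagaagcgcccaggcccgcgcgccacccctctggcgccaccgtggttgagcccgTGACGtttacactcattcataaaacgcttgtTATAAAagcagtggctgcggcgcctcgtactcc
FOSB, plus strand, chr19:45467746-45467995: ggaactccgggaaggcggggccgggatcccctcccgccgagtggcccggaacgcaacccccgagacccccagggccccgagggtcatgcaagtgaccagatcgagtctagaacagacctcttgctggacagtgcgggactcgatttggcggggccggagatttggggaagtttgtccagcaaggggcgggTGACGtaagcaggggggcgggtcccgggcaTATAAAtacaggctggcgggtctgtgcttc
EGR1, plus strand, chr5:138465229-138465478: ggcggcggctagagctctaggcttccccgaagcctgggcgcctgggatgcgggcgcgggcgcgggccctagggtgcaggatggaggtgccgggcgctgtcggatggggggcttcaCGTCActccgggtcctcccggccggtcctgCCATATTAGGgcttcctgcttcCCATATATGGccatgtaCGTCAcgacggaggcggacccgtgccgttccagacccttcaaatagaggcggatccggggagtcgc
FOSL2, plus strand, chr2:28392608-28392857: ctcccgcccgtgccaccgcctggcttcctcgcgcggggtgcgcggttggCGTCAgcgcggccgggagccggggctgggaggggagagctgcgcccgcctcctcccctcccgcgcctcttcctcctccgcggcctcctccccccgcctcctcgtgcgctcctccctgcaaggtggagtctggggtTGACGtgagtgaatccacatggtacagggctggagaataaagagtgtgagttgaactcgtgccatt
JUN, minus strand, chr1:58784048-58784297: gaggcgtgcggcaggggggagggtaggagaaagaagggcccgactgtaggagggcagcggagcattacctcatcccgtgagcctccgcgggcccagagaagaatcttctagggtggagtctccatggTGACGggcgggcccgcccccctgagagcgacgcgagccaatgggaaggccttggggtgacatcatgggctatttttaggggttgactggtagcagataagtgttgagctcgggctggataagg

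The CRE core TGACG was found in the promoter window of 9 of the 10 members and in 21.2% of 35116 RefSeq promoters of the same length. The exception was ATF3, which had 2 windows, chr1:212565157-212565406 and chr1:212614768-212615017. Other start sites of ATF3 were not searched, so its lack of the core holds for these windows only. The CRE core was added to the search after the sequences had been read. The full CRE, TGACGTCA, which contains the core, was found in JUND and DUSP1 and in 1.65% of all promoters. A TATAAA box began 33 bases before the start in FOS, 31 in JUNB and 30 in FOSB and DUSP1. An upstream TATAAA in 1 of 2 ATF3 windows began 230 bases before the start, and 10.7% of all promoters held the motif. Within the 250 bases EGR1 was the 1 member with CArG boxes, which began 105 and 83 bases before its start, while 1.16% of promoters had such a box. Sequence further upstream was not searched for any motif, so a member without a match may hold one there. The TRE, TGANTCA, was in none of the members and in 6.57% of promoters. A match is only a match of letters and no measure of binding, and these sequences were not read from the cells.

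Total counts ranged from 40077369 to 51311482 per library. Levels are given as CPM (read counts scaled to a common library size) after TMM scaling, and a gene is called changed when its edgeR quasi-likelihood p, adjusted by the Benjamini-Hochberg method over all genes, is under 0.05. SAMHD1 had 49.8 to 56.4 CPM in WT, 22.5 and 23.0 CPM in A1 of experiments 10 and 11, 6.44 and 6.15 CPM in A1 of experiments 15 and 16, and 23.6 and 20.2 CPM in A2. It was lower in every KO library than in every WT library, and the A1 libraries fell into 2 separate levels by experiment pair. In experiments 10 and 11 A1 stood at the level of A2, not at that of A1 in experiments 15 and 16, so libraries labelled as the same clone differed in the targeted gene, and comparisons of A1 between the pairs carry that difference. Mitochondrial genes held 7.79% to 8.48% of counts in experiments 10 and 11 and 9.05% to 13.9% in experiments 15 and 16, where A1 of experiment 15 stood apart at 13.9% and the other 5 libraries held at most 10.7%. EGR1 and FOSL2 were called in A1 also without that library. Of the luminal epithelial markers, KRT18 ranged from 36.3 to 60.3 CPM, GATA3 from 15.4 to 24.8 CPM, PGR from 15.4 to 20.7 CPM, FOXA1 from 14.1 to 26.8 CPM and KRT8 from 3.10 to 9.07 CPM, and KRT19 was not analysed here. ESR1, the estrogen receptor gene, ranged from 0.183 to 1.59 CPM, EPCAM from 0.348 to 1.78 CPM and CDH1 from 0.684 to 2.16 CPM, and 2.91%, 6.54% and 8.10% of genes had a lower median. For KRT8 it was 18.8% of genes, and for KRT18, GATA3, PGR and FOXA1 39.1% to 62.5%. VIM, the gene of the mesenchymal filament vimentin, had 1175 CPM in its lowest library and 1518 CPM in its highest. The low levels of ESR1, EPCAM, CDH1 and KRT8 and the high level of VIM go against a luminal label. The line is called here as it was labelled. Of 9 luminal markers 8 were listed, of which 1 was called higher and 2 lower in A1 of experiments 15 and 16, 1 higher and 1 lower in A2, and 2 higher and 2 lower in WT between the experiment pairs. Of all genes, 13.2%, 21.2% and 16.4% were called in these comparisons. The call that held without any 1 library was FOXA1 in A1 (log2 fold change 0.47), KRT8, a keratin gene, in A2 (−0.98) and ESR1 in WT between the pairs (−1.84). The summed level of the 8 was 121 to 130 CPM in WT and 108 to 118 CPM in A1 in experiments 10 and 11, and 113 to 115 CPM in WT, 106 to 108 CPM in A1 and 102 to 106 CPM in A2 in experiments 15 and 16. Of 11 fibroblast, endothelial and immune markers 5 were listed (COL1A1, COL3A1, VWF, CD14 and CD68), and the others were not analysed here. Their summed level in experiments 10 and 11 was 29.7 to 31.0 CPM in WT and 21.9 to 22.0 CPM in A1, and in experiments 15 and 16 it was 21.6 to 24.1 CPM in WT, 15.1 to 16.8 CPM in A1 and 15.4 to 15.8 CPM in A2. In experiments 15 and 16 COL3A1, a collagen gene, made up most of the difference. Its log2 fold change there was −1.66 in A1 and −2.16 in A2. In experiments 10 and 11 both COL3A1 and COL1A1 were lower in A1. COL3A1 had at least 15.3 CPM in WT and at most 12.7 CPM in A1 of these experiments. COL1A1 had at least 7.94 CPM in WT and at most 6.57 CPM in A1. VWF, CD14 and CD68 stayed at or below 2.12 CPM. The part of these luminal and other markers in the following results was not tested. In bulk RNA, fewer cells of a type and less RNA per cell cannot be told apart.

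The members differed widely in level. Per kilobase of transcript, the median over the 10 libraries was 144 CPM per kb for JUN, 41.6 for ATF3, 35.5 for JUND, 21.7 for IER2, 18.7 for DUSP1, 13.8 for EGR1, 7.57 for JUNB, 3.92 for FOS, 2.89 for FOSL2 and 0.842 for FOSB. JUN, whose lowest library stood at 136 CPM per kb, did not overlap ATF3, whose highest stood at 47.5. Every other pair of neighbours in this order overlapped across libraries. JUN was also the steadiest member. The SD of its log2 CPM was 0.068, which is smaller than in all but 5.15% of genes, and the median gene had 0.16. FOSB (SD 0.97) and FOS (SD 0.82) varied more than 99.0% and 98.3% of genes, followed by EGR1 (SD 0.61, 95.3%), IER2 (SD 0.38), JUNB (SD 0.37) and FOSL2 (SD 0.31). The spread of these genes is described over all libraries, among them the ones that chose FOS and JUNB. The lowest raw count of any member in any library was 79, for FOSB.

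**Figure D1:**
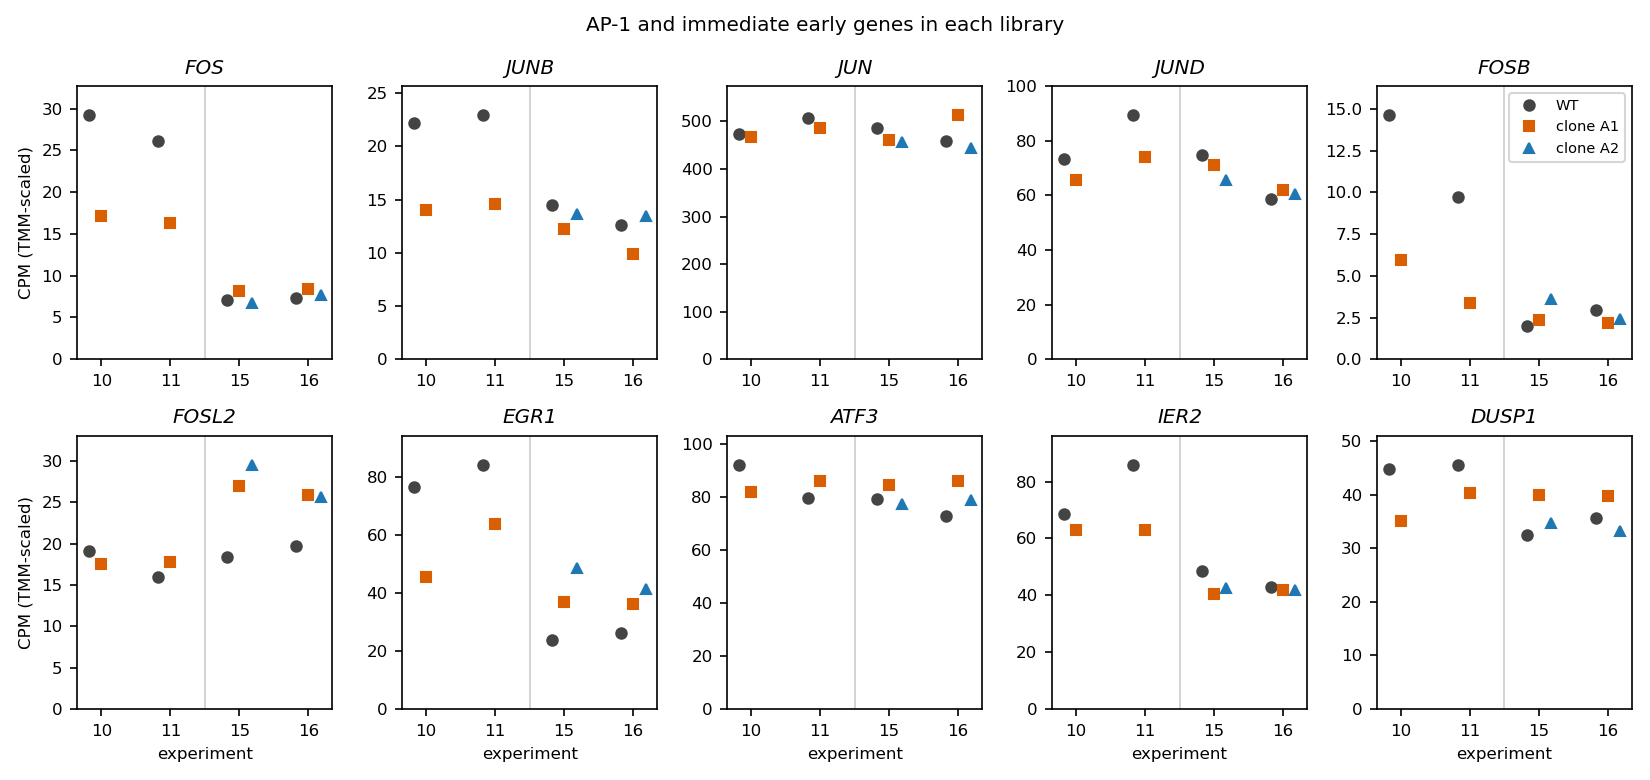
CPM (TMM-scaled, linear axis from 0) of each member in each of the 10 libraries, by experiment, with WT as circles, A1 as squares and A2 as triangles. FOS, JUNB, FOSB, EGR1 and IER2 stood higher in experiments 10 and 11 than in experiments 15 and 16 in both WT and A1, while JUN ranged only from 444 to 513 CPM.

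FOS (NCBI gene 2353, chromosome 14 from 75278828 to 75282230 on GRCh38.p14) encodes the partner that gives AP-1 much of its DNA binding strength when joined to a JUN protein. In WT it had 29.2, 26.1, 7.11 and 7.33 CPM in experiments 10, 11, 15 and 16. A1 had 17.1, 16.4, 8.13 and 8.35 CPM in the same order, and the levels in A2 were 6.71 and 7.67 CPM. The WT libraries of experiments 10 and 11 were the highest, A1 of the same experiments came next, and the 6 libraries of experiments 15 and 16 lay together far below. In experiments 15 and 16, which did not enter the choice of the gene, A1 stood at a log2 fold change of 0.19 against WT (95% interval −0.063 to 0.44, edgeR adjusted p = 0.339) and A2 at −0.0076 (−0.26 to 0.25, adjusted p = 0.975). Neither was called.

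JUNB (NCBI gene 3726, chromosome 19 from 12791486 to 12793315), a JUN family protein that can restrain JUN, had 22.2, 22.9, 14.5 and 12.6 CPM in WT. A1 had 14.1, 14.6, 12.2 and 9.89 CPM, and A2 had 13.6 and 13.5 CPM. Only the WT libraries of experiments 10 and 11 exceeded 20 CPM. In experiments 15 and 16 both A1 libraries lay below both WT libraries, with a log2 fold change of −0.29 (−0.53 to −0.045, edgeR adjusted p = 0.116), which was not called. Leaving out 1 library moved it from −0.45 without A1 of experiment 15, where it was called (adjusted p = 0.0449), to −0.14 without A1 of experiment 16 (adjusted p = 0.531), and it was also called with the experiment number as a block (adjusted p = 0.0332). A2 stood at 0.0037 (−0.23 to 0.24, adjusted p = 0.986).

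FOSB (NCBI gene 2354, chromosome 19 from 45467996 to 45475179), a close relative of FOS, had 14.6, 9.73, 1.99 and 2.96 CPM in WT, 5.97, 3.39, 2.33 and 2.16 CPM in A1 and 3.61 and 2.40 CPM in A2. As for FOS, the WT libraries of experiments 10 and 11 were the highest, and the highest library had 7.34 times the level of the lowest. In experiments 15 and 16 each clone overlapped WT, and both A2 libraries lay above both A1 libraries. The log2 fold change against WT was −0.16 (−0.67 to 0.35) in A1 and 0.25 (−0.24 to 0.74) in A2. Neither was called.

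FOSL2 (NCBI gene 2355, chromosome 2 from 28392858 to 28417317) encodes FRA-2, a FOS family protein that lacks the transactivation domain of FOS and usually appears later in a response. It had 19.1, 15.99, 18.3 and 19.7 CPM in WT, 17.5, 17.8, 26.9 and 25.8 CPM in A1 and 29.5 and 25.6 CPM in A2. The 4 KO libraries of experiments 15 and 16 were the highest, and the A1 libraries of experiments 10 and 11 lay within the WT range. FOSL2 rose in A1 by 0.47 on the log2 scale (SE 0.087, 95% interval 0.29 to 0.66, edgeR adjusted p = 0.0024) and in A2 by 0.53 (SE 0.086, 0.35 to 0.71, adjusted p = 0.000425). A2 differed from A1 by 0.059 (−0.12 to 0.24, adjusted p = 0.757).

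JUN (NCBI gene 3725, chromosome 1 from 58780791 to 58784047), the founding AP-1 member, had 473, 508, 486 and 459 CPM in WT, 467, 485, 460 and 513 CPM in A1 and 456 and 444 CPM in A2. WT and A1 overlapped, and both A2 libraries lay just below all WT and A1 libraries. The log2 fold change was 0.042 in A1 (−0.090 to 0.17) and −0.072 in A2 (−0.20 to 0.061), so a change beyond 0.20 on the log2 scale in either direction lay outside, or at the edge of, both intervals. JUND (NCBI gene 3727, chromosome 19 from 18279694 to 18281622), the JUN family member that is made most constantly, had 73.4, 89.3, 74.7 and 58.6 CPM in WT, 65.5, 74.0, 71.2 and 62.1 CPM in A1 and 65.8 and 60.5 CPM in A2. The groups overlapped in experiments 15 and 16, with 0.0013 in A1 (−0.23 to 0.23) and −0.080 in A2 (−0.31 to 0.15). With RLE size factors or DESeq2 the value of JUND in A1 was −0.0014 and −0.0028.

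EGR1 (NCBI gene 1958, chromosome 5 from 138465479 to 138469303), a zinc finger factor and a classic target of ERK and SRF, had 76.7, 84.1, 23.9 and 26.1 CPM in WT. A1 had 45.5, 63.6, 37.1 and 36.3 CPM, and A2 had 48.8 and 41.3 CPM. A1 was thus below WT in experiments 10 and 11 and above it in experiments 15 and 16, where A2 was higher still. In experiments 15 and 16 EGR1 rose 1.46-fold in A1 (log2 fold change 0.55, SE 0.086, 95% interval 0.37 to 0.73, edgeR adjusted p = 0.000743) and 1.79-fold in A2 (0.84, SE 0.086, 0.66 to 1.03, adjusted p = 7.37e-06). Between the clones it differed by 0.29 (0.12 to 0.47, edgeR adjusted p = 0.0501), which was not called. It was called with RLE size factors (adjusted p = 0.0482), with DESeq2 (0.0436), with a mean count of at least 10 (0.0482), with the experiment number as a block (0.0131) and without WT of experiment 15 (0.0281), WT of experiment 16 (0.0307) or A2 of experiment 16 (0.0142). It was not called in the fit of 5 groups over 10 libraries (adjusted p = 0.262), nor without A1 of experiment 15, A1 of experiment 16 or A2 of experiment 15, where it was lowest at 0.17 (adjusted p = 0.422).

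ATF3 (NCBI gene 467, chromosome 1 from 212565407 to 212620777), a stress-induced CREB family factor that pairs with JUN proteins, had 92.1, 79.5, 79.4 and 72.8 CPM in WT, 81.9, 86.1, 84.4 and 86.1 CPM in A1 and 77.5 and 78.8 CPM in A2. In experiments 15 and 16 A1 lay above WT, at 0.16 (0.027 to 0.30, edgeR adjusted p = 0.111), and A2 at 0.036 (−0.10 to 0.17), and neither was called. With the experiment number as a block ATF3 was called in A1 (adjusted p = 0.0222), and with 1 library left out it ranged from 0.098 to 0.23 and was not called. IER2 (NCBI gene 9592, chromosome 19 from 13150411 to 13154911), a nuclear protein gene induced with FOS, had 68.6, 85.8, 48.7 and 43.0 CPM in WT, 63.1, 62.9, 40.5 and 42.0 CPM in A1 and 42.5 and 41.7 CPM in A2. The 4 KO libraries of experiments 15 and 16 lay just below the WT libraries, with −0.15 in A1 (−0.31 to 0.0088, adjusted p = 0.214) and −0.12 in A2 (−0.28 to 0.035, adjusted p = 0.268). With 1 library left out IER2 ranged from −0.24 to −0.057 in A1 and from −0.22 to −0.030 in A2. DUSP1 (NCBI gene 1843, chromosome 5 from 172768096 to 172771195) encodes the phosphatase that switches off p38, JNK and ERK after a stimulus. It had 44.8, 45.5, 32.6 and 35.7 CPM in WT, 35.1, 40.2, 39.9 and 39.7 CPM in A1 and 34.8 and 33.3 CPM in A2. In experiments 15 and 16 both A1 libraries were above WT and A2, at 0.22 against WT (0.063 to 0.38, adjusted p = 0.0624), while A2 stood at −0.0092 (−0.17 to 0.15). Neither was called, and in the blocked fit DUSP1 was called in A1 (adjusted p = 0.0154). With 1 library left out it ranged there from 0.16 to 0.28 and was not called.

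Over the members as a group, 2 of 10, EGR1 and FOSL2, were called in A1 of experiments 15 and 16, both higher, against 13.2% of all genes called in either direction, 6.44% higher and 6.74% lower. In A2 the same 2 genes were called, both higher, against 21.2% of all genes, 9.75% higher and 11.4% lower. The 2 clones share their WT libraries, so these are not independent results. The median log2 fold change of the members was 0.10 in A1 and −0.0019 in A2, and over all genes it was 0.0026 and 0.0043. A count of 2 among 10 is near the background share, and the result concerns those 2 genes, not the group. In A2 against A1, 0 of 10 members were called by edgeR, with 3 at an unadjusted p under 0.05 (EGR1, JUNB and DUSP1) and 1 called by DESeq2, against 6.16% of all genes. These 3 were called with the experiment number as a block (adjusted p = 0.0131 for EGR1, 0.0430 for JUNB and 0.0190 for DUSP1), where 1947 genes were called in place of 858. That block also raised the members called in A1 against WT from 2 to 5, and the genes called from 1834 to 3237 for A1 and from 2948 to 4511 for A2. The clones of experiments 15 and 16 were also joined as 1 KO group. This fit reuses the same libraries and takes those of 2 separate lines as replicates, so it adds no independent result. In it EGR1 (0.71, 0.45 to 0.96, edgeR adjusted p = 0.00441) and FOSL2 (0.50, 0.32 to 0.68, adjusted p = 0.00322) were called, against 9.99% of all genes. Both calls were lost without WT of experiment 15 (adjusted p = 0.0884 for EGR1 and 0.0746 for FOSL2), where the values were 0.65 and 0.46 and the number of genes called went from 1390 to 190. Without WT of experiment 16, 273 genes were called. Each clone taken alone kept the calls of EGR1 and FOSL2 in all 6 fits that left out 1 library.

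**Figure D2:**
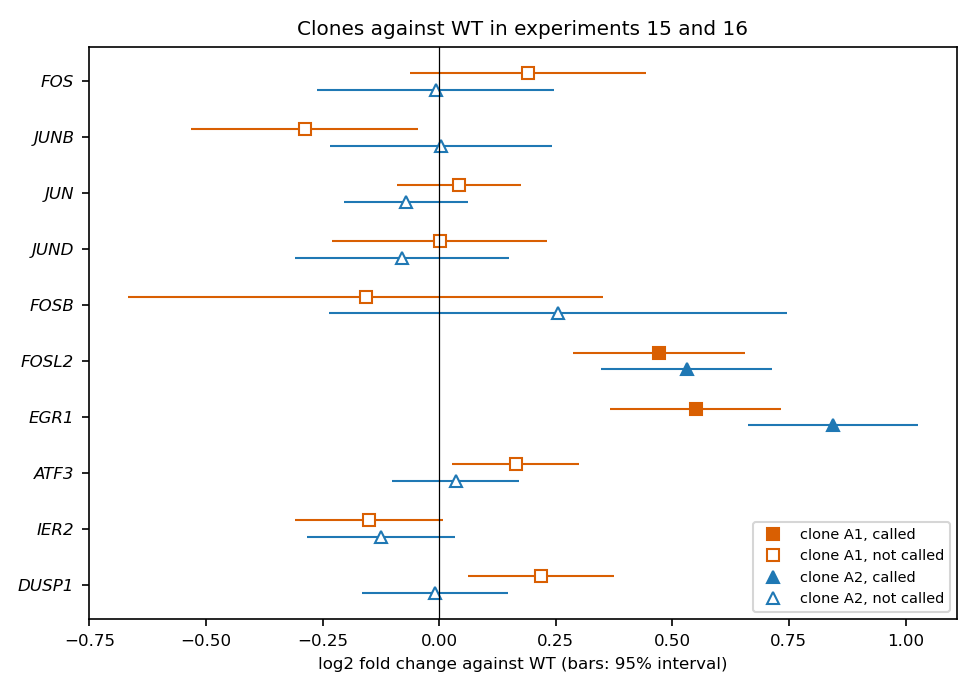
Log2 fold change of each member against WT in experiments 15 and 16, for A1 (squares) and A2 (triangles), each group with 2 libraries, with 95% intervals from the edgeR fit as bars. Filled symbols are genes called at adjusted p under 0.05, which are FOSL2 (0.47 and 0.53) and EGR1 (0.55 and 0.84).

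In experiments 10 and 11, the contrast that chose FOS and JUNB, no member was tested. FOS stood at a log2 fold change of −0.72 and JUNB at −0.66 in A1 against WT. Among the other members the largest difference was that of FOSB at −1.37, followed by EGR1 at −0.56, IER2 at −0.29, DUSP1 at −0.26 and JUND at −0.22. JUN (−0.043), ATF3 (−0.031) and FOSL2 (0.010) lay near 0. For FOS and JUNB both A1 libraries lay below both WT libraries, which is how they were chosen. Among the other members this also held for FOSB, EGR1, IER2 and DUSP1, and it held for 19.4% of all genes. By edgeR 0.0862% of genes were called there, 12 in all. That count rested on single libraries, since it was 3144 without WT of experiment 10, 76 without WT of experiment 11, and 19 and 37 without A1 of experiments 10 and 11, and it was 229 with the experiment number as a block. In experiment 10 the log2 difference was −0.77 for FOS and −0.66 for JUNB, and in experiment 11 it was −0.67 and −0.65. The same difference within experiments 15 and 16 was 0.19 and 0.19 for FOS, and −0.24 and −0.35 for JUNB. For EGR1 it went from −0.75 and −0.40 to 0.63 and 0.47, and for DUSP1 from −0.35 and −0.18 to 0.29 and 0.15. The change of sign of FOS, EGR1 and DUSP1 between the experiment pairs was not tested. SAMHD1 in the libraries labelled A1 was also at different levels in the pairs, and its part in the change of sign was not tested.

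In WT spheroids alone, 4 of the members tested fell from experiments 10 and 11 to the later-numbered experiments 15 and 16. FOSB showed the largest fall, with a log2 fold change of −2.28 (SE 0.29, edgeR adjusted p = 0.000503), EGR1 fell by 1.68 (SE 0.13, adjusted p = 2.56e-06) and IER2 by 0.75 (SE 0.094, adjusted p = 0.000106). DUSP1 fell by 0.40 (SE 0.083, adjusted p = 0.00383), a call lost without WT of experiment 15 (−0.34, adjusted p = 0.0575). Of the 8 members tested 4 were called lower and 0 higher, against 16.4% of all genes called, 8.61% higher and 7.74% lower. The libraries of experiments 10 and 11, of WT and of A1, entered the choice of FOS and JUNB. Counts of members that vary with these genes are therefore not independent of that choice. JUND (−0.29, adjusted p = 0.103), ATF3 (−0.17, adjusted p = 0.137), JUN (−0.056) and FOSL2 (0.12) were not called. JUND was called without WT of experiment 10 (−0.43, adjusted p = 0.0343) or of experiment 15 (−0.48, adjusted p = 0.0291), and ATF3 without WT of experiment 11 (−0.28, adjusted p = 0.0216). FOS and JUNB, given without a test because the WT libraries of experiments 10 and 11 chose them, stood at −1.93 and −0.74. The libraries of experiments 10 and 11 also had the lower mitochondrial share of counts, and its part in these differences was not tested. What separates the experiment pairs cannot be told from the labels.

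In the libraries labelled A1 the same comparison called IER2, EGR1 and FOSB lower and FOSL2 higher. Against experiments 10 and 11, IER2 fell by 0.61 in experiments 15 and 16 (SE 0.094, edgeR adjusted p = 9.05e-05), EGR1 by 0.57 (SE 0.13, adjusted p = 0.00239) and FOSB by 1.06 (SE 0.31, adjusted p = 0.0167). FOSL2 rose by 0.58 (SE 0.10, adjusted p = 0.000247), whereas in WT it stood at 0.12 (−0.098 to 0.33). Of the 8 members tested, 3 were called lower and 1 higher, against 39.4% of all genes called, 19% lower and 20.4% higher, a share that leaves the count of members near the background. The call of EGR1 was lost without A1 of experiment 11 (−0.31, adjusted p = 0.0518). That of FOSB was lost without A1 of experiment 10 (−0.60, adjusted p = 0.165), 15 (−1.12, adjusted p = 0.0711) or 16 (−1.01, adjusted p = 0.0955). DUSP1 (0.080), JUN (0.030), ATF3 (0.021) and JUND (−0.065) were not called, and FOS (−1.02) and JUNB (−0.37) were not tested. Whether the decline differed between WT and A1 was not tested, since that difference contains the contrast that chose the genes.

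**Figure D3:**
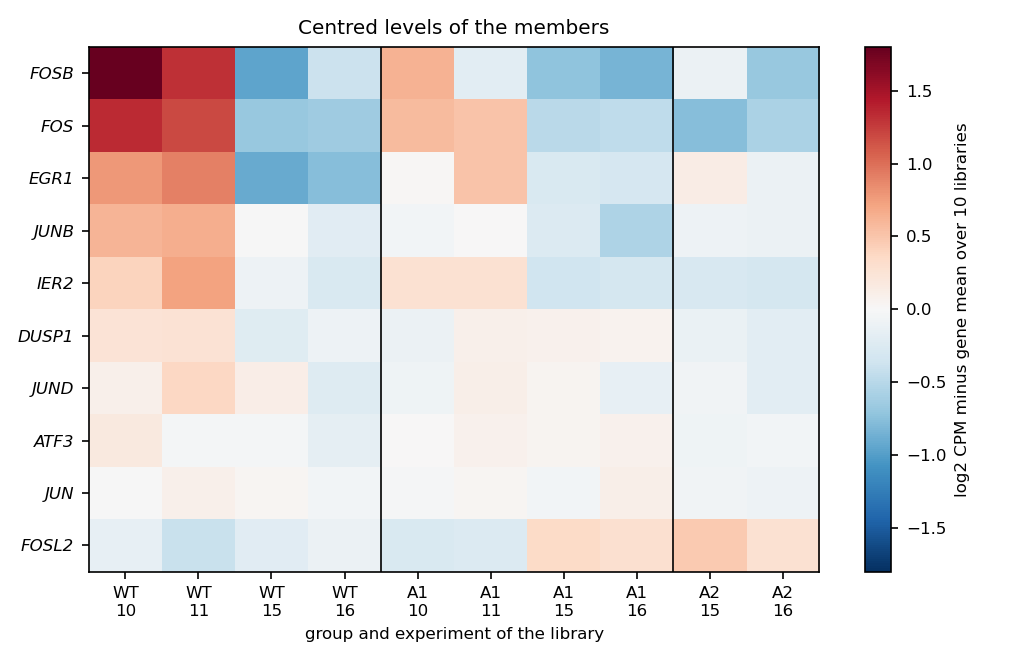
Log2 CPM of each member (rows) in each library (columns, by group and experiment) minus the mean of that gene over the 10 libraries, red above and blue below the mean. FOSB, FOS, EGR1, JUNB and IER2 are red in WT of experiments 10 and 11, and FOSL2 is red in the 4 KO libraries of experiments 15 and 16.

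Other genes of the pathway were taken from lists by role. Of the other AP-1 and bZIP partners, 8 of 10 were listed, and 0 were called in A1 by edgeR (1 at an unadjusted p under 0.05). In A2 the small MAF gene MAFG was called, at 0.27 (edgeR adjusted p = 0.00975), a call lost without WT of experiment 16 (adjusted p = 0.0540) or A2 of experiment 15 (adjusted p = 0.113). Among 28 of 30 other immediate early genes, 1 was called higher and 1 lower in A1, and 3 higher and 3 lower in A2 (all genes, 6.44% higher and 6.74% lower in A1, and 9.75% higher and 11.4% lower in A2), with medians of −0.023 and −0.029. In A2, CSRNP1 (0.54, adjusted p = 0.000816), a nuclear protein gene induced by AXIN, and RHOB (0.33, adjusted p = 0.000696), a small GTPase gene, rose, and PPP1R15A (−0.45, adjusted p = 0.00029), the stress gene that restores translation, fell. These 3 calls held in each fit that left out 1 library. The largest called fall of the list in A2 was that of KLF2, a transcription factor gene (−0.96, edgeR adjusted p = 0.00717). In A1 the calls were CSRNP1 (0.38, adjusted p = 0.0162) and KLF2 (−0.83, adjusted p = 0.0271). Neither of these A1 calls, nor that of KLF2 in A2, held in every fit that left out 1 library.

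More genes of this list were called between the experiment pairs. In WT 10 of the 28 were called lower and 2 higher in experiments 15 and 16, against 7.74% of all genes lower and 8.61% higher, with a median of −0.25 against 0.0025 for all genes. The largest falls were in GADD45B (−0.93, edgeR adjusted p = 0.03), a stress sensor gene, KLF2 (−0.85, adjusted p = 0.00621), a Krüppel-like factor gene, and CCN2 (−0.68, adjusted p = 0.00655), a matrix signalling protein gene. The place of GADD45B rested on WT of experiment 11, which had 14.1 CPM against 7.11 CPM in experiment 10, and without it the log2 fold change was −0.35 (adjusted p = 0.216). GADD45B was also not called without WT of experiment 15 (adjusted p = 0.116) or 16 (0.218), and without WT of experiment 16 neither KLF2 (0.0927) nor CCN2 (0.0622) was called. Of the 12 calls, 3 held in every fit that left out 1 WT library, all of them lower. In A1, 8 of the 28 were called lower and 2 higher, beside 19% of all genes lower and 20.4% higher, a count near the background. Of these 10 calls, 7 held when any A1 library was left out. There CCN2 fell by 1.26 (adjusted p = 9.28e-06), KLF2 by 1.20 (adjusted p = 0.0002) and PPP1R15A by 0.64 (adjusted p = 5.26e-05).

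Among the MAPK phosphatases and ERK feedback genes, all 15 were listed. A1 had 2 called higher and 1 lower, beside 13.2% of all genes in either direction, and A2 had 3 higher and 2 lower, beside 21.2%. SPRY2, a feedback inhibitor of receptor tyrosine kinase signalling, rose in A1 (0.60, edgeR adjusted p = 0.000691) and in A2 (0.45, adjusted p = 0.00284), and it kept both calls without any 1 library. DUSP4, a nuclear MAPK phosphatase gene, fell in A2 (−0.37, adjusted p = 0.000606) and in A1 (−0.26, adjusted p = 0.0133), the latter not called without WT of experiment 16 (adjusted p = 0.114) or A1 of experiment 15 (adjusted p = 0.0739). In WT between the experiment pairs 3 of the 15 were called higher and 1 lower, beside 16.4% of all genes. All 22 upstream kinases and SRF or CREB factors were listed, of which A1 had 0 higher and 2 lower and A2 had 4 higher and 4 lower, against the same 13.2% and 21.2% of all genes. MAP2K7, a kinase gene upstream of JNK, fell in A1 (−0.34, adjusted p = 0.00287) and in A2 (−0.43, adjusted p = 0.000222). MRTFA, a coactivator gene of SRF, fell in A2 (−0.56, adjusted p = 0.000574) and was lower there than in A1 (−0.51, adjusted p = 0.00289). Its paralogue MRTFB rose in A2 (0.31, adjusted p = 0.00711), a call lost without WT of experiment 15 (adjusted p = 0.0503) or A2 of experiment 16 (0.0697). MAPK10, which encodes the kinase JNK3, had the largest called change of the list in A2, a rise of 0.96 (adjusted p = 0.00166) that was called without any 1 library. In WT, 2 of the 22 were called higher and 2 lower in experiments 15 and 16, beside 16.4% of all genes.

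Of the AP-1 target genes, 13 of 17 were listed, of which 3 were called higher and 3 lower in A1, and 2 higher and 6 lower in A2, with medians of −0.035 and −0.27, where 13.2% and 21.2% of all genes were called. CD44, the hyaluronan receptor gene, fell in A1 of experiments 15 and 16 by 0.61 (edgeR adjusted p = 0.00237). CXCL8, the interleukin-8 gene, stood there at 0.88 (adjusted p = 0.0116), a call lost without A1 of experiment 15 (0.54, adjusted p = 0.154) or WT of experiment 16 (adjusted p = 0.0501) and in the fit of 5 groups (adjusted p = 0.119). In experiments 10 and 11 CXCL8 was lower in A1 (1.10 and 0.479 CPM) than in WT of the same experiment (2.00 and 0.877 CPM), and the groups overlapped. PLAU, the urokinase gene, rose in A1 by 0.63 (adjusted p = 0.0126) and in A2 by 0.53 (adjusted p = 0.018), and each call was lost in 3 fits that left out 1 library, that of A2 also in the fit of 5 groups (adjusted p = 0.0575). VEGFA, the angiogenic growth factor gene, rose in A1 by 0.32 (adjusted p = 0.00317) and was called without any 1 library. HMOX1, the heme oxygenase gene, fell in A2 by 1.00 (adjusted p = 0.000184). In A1 the call of HMOX1 (−0.58, adjusted p = 0.0156) was lost without A1 of experiment 16 (−0.33, adjusted p = 0.141) and in the fit of 5 groups (adjusted p = 0.0533), and without A1 of experiment 15 the value was −0.88. Between the experiment pairs WT had 0 of these 13 called higher and 1 lower, beside 16.4% of all genes. Of the 10 heat shock genes, all listed, 0 were called higher and 2 lower in A1, 2 higher and 4 lower in A2, and 0 higher and 1 lower in WT between the experiment pairs, where 13.2%, 21.2% and 16.4% of all genes were called.

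**Figure D4:**
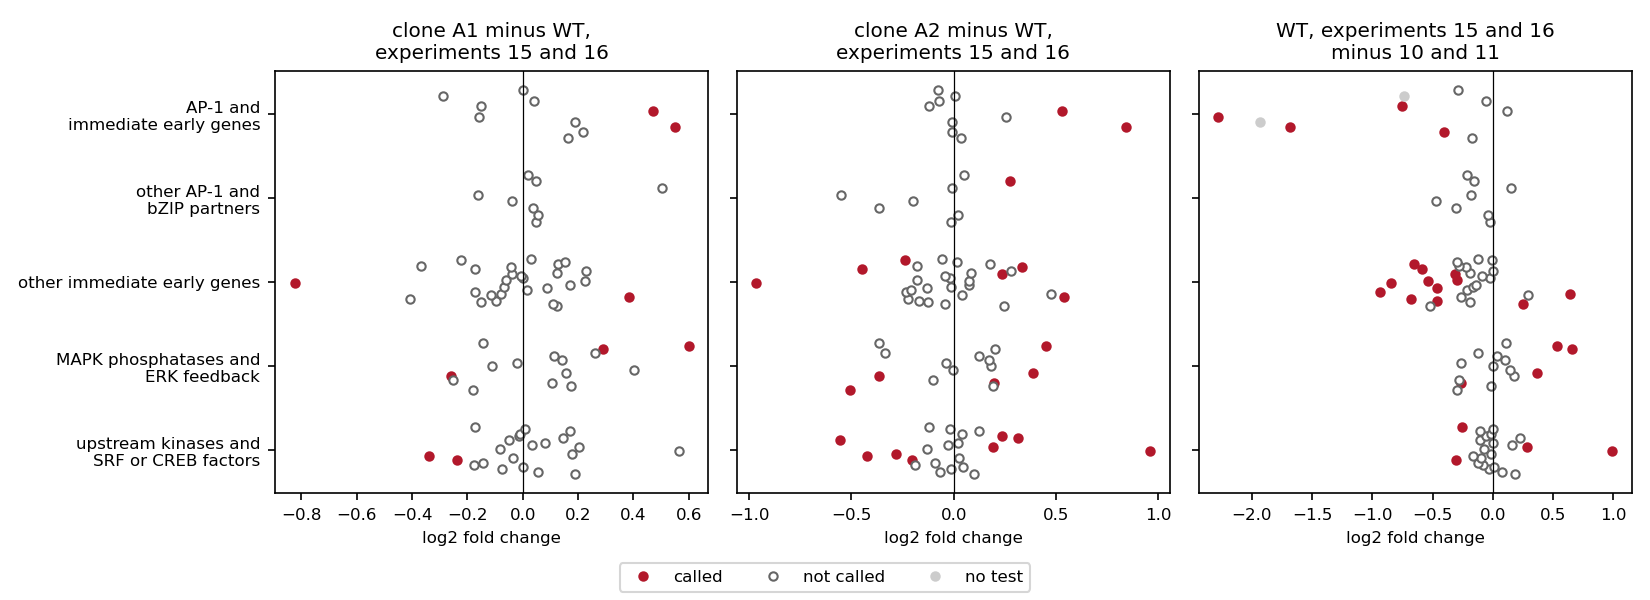
Log2 fold change of the listed genes of 5 lists (rows, 1 point a gene) in A1 and A2 against WT in experiments 15 and 16 and in WT between the experiment pairs, with called genes filled red and FOS and JUNB, not tested in the last panel, in grey. Of 28 other immediate early genes 1 was called lower in A1, 3 in A2 and 10 in WT between the pairs, where 6.74%, 11.4% and 7.74% of all genes were called lower, and 3 of the 12 WT calls in this list held without any 1 library.

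Genes were also ranked by how closely their log2 CPM, centred per gene, followed FOS and JUNB over the 10 libraries, as the root mean square difference. The closest to FOS were PCDHB3 (0.27), GRIN2C (0.31), ANXA1 (0.34), CHGB (0.35) and GLUD2 (0.36), of which ANXA1 had the highest mean at 2.71 CPM. Among the members FOSB (0.40), EGR1 (0.43) and IER2 (0.45) were closest to FOS, and FOSL2 (1.00) was farthest. The closest to JUNB were RELB (0.11), RHBDF2 (0.13), RELL2 (0.14), LMOD1 (0.16) and TGM2 (0.16), and among the members IER2 (0.20) and JUND (0.25). These are the closest genes of 13920 over 10 libraries that share 5 combinations of group and experiment pair, and they are a description.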

How the data were processed

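Total RNA of spheroids was made into stranded mRNA libraries and sequenced as paired reads by the authors, who aligned to GRCh38 with HISAT2 and kept genes with no count of 0. StringTie is named in the submitters' processing notes, and whether counting used strand is not given in the sources used here, so overlapping and antisense genes may share reads. Each deposited value is the number of reads counted on an NCBI gene, as raw counts with no normalization and none below 1. Symbols came from the RefSeq gene table (13885 of 13920 genes).

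Differences were tested with edgeR 4.0.16 under R 4.3.3 (TMM, robust quasi-likelihood test, Benjamini-Hochberg adjustment over all genes, threshold 0.05) and, as an alternative, DESeq2 1.42.0. Log2 CPM used a prior count of 2. WT, A1 and A2 of experiments 15 and 16 shared 1 fit, and the experiment pairs were compared in 1 fit of 5 groups over all 10 libraries. Members, lists and tests were chosen with earlier results of these data known. Genes named were the members, SAMHD1, up to 3 genes per direction, list and comparison with the largest called change, and the 5 genes closest to FOS and to JUNB. Marker levels are named in addition, and 1 listed marker is not reported here. Groups share experiment numbers in the labels, which call each number a replicate. Libraries of the same number correlated at 0.0844 to 0.151 over genes once the means of group and experiment pair were removed, and a fit with the number as a block is given beside the results whose call it changed. The methods were tested on simulated data. Counts limit the precision of the least abundant members, and intervals cover the spread between libraries only as far as 2 per group show it.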

Additional observations from a re-analysis of the deposited data

Results flagged for a closer look

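DUSP1 in clone A1 was flagged because 1 of its 4 libraries lay apart from the others. Clone A1 of experiment 10 had 35.1 CPM and the other 3 had 39.7 to 40.2 CPM, so that the gap to the nearest was 0.895 of the whole range. Chance flags about 1 in 20 such groups, and 20 were examined.

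FOS, EGR1 and DUSP1 were flagged because clone A1 lay below WT in both experiments 10 and 11 and above WT in both experiments 15 and 16. The mean log2 difference of clone A1 from WT was higher in experiments 15 and 16 by 0.912 for FOS, 1.13 for EGR1 and 0.488 for DUSP1. These differences were not tested, since they contain the contrast that chose the genes.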

How the results depend on the processing

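Each comparison within an experiment pair was also fitted with a replicate block by experiment. Each experiment pair holds 2 numbers, too few to show from the data alone whether the numbers pair the libraries. With the block the genes called went from 1834 to 3237 for A1 against WT, from 2948 to 4511 for A2 against WT, from 858 to 1947 for A2 against A1 and from 12 to 229 for A1 against WT in experiments 10 and 11. The members called went from 2 to 5 for A1 (JUNB, ATF3 and DUSP1 added) and from 0 to 3 for A2 against A1 (EGR1, JUNB and DUSP1). It changed no other call of a member. In the fit of 5 groups over 10 libraries, 1147 genes were called for A1 against WT and 2165 for KO against WT, where 1390 had been. DESeq2 called 23 genes for A1 against WT in experiments 10 and 11. With RLE size factors, DESeq2 or a mean count of at least 10, the members called for A2 against A1 went from 0 to 1 (EGR1). JUND in A1, at 0.0013, had −0.0014 with RLE and −0.0028 with DESeq2. The alternatives for A1 against WT in experiments 10 and 11 were added once the data had been seen. The cause of these changes was not tested.

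Leaving out 1 library gave 920 to 1847 genes for A1 against WT (920 without WT of experiment 15, 1128 without WT of experiment 16, 1093 without A1 of experiment 15), 1768 to 3205 for A2 against WT (1768 without A2 of experiment 16, 1841 without WT of experiment 15), 497 to 932 for A2 against A1 (497, 514 and 557 without A1 of experiment 15 and A2 of experiments 15 and 16), 190 to 1531 for KO against WT (190 and 273 without WT of experiments 15 and 16, 909 without A2 of experiment 16), 19 to 3144 for A1 against WT in experiments 10 and 11 (3144 without WT of experiment 10, 76 without WT of experiment 11, 19 and 37 without A1 of experiments 10 and 11) and 820 to 3658 for WT between the pairs (3658 without WT of experiment 10, 1002 and 820 without WT of experiments 15 and 16). A lone library is assumed to vary like the other groups. Members called ranged from 0 to 1 for A2 against A1 and from 0 to 2 for KO against WT.

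Members with small values changed sign when 1 library was left out. The log2 ranges for A1 against WT were −0.037 to 0.12 for JUN, −0.17 to 0.19 for JUND and −0.40 to 0.17 for FOSB. For A2 against WT they were −0.11 to 0.085 for FOS, −0.10 to 0.11 for JUNB, −0.25 to 0.11 for JUND, −0.060 to 0.58 for FOSB, −0.030 to 0.10 for ATF3 and −0.070 to 0.055 for DUSP1. For A2 against A1 they were −0.18 to 0.024 for JUND and −0.043 to 0.16 for FOSL2, and for KO against WT −0.060 to 0.030 for JUN, −0.21 to 0.15 for JUND and −0.17 to 0.39 for FOSB. In experiments 10 and 11 they were −0.090 to 0.0088 for JUN, −0.11 to 0.15 for FOSL2 and −0.13 to 0.082 for ATF3. Between the experiment pairs they were −0.0067 to 0.24 for FOSL2 in WT, and in A1 −0.050 to 0.10 for JUN, −0.17 to 0.031 for JUND, −0.015 to 0.058 for ATF3 and −0.016 to 0.18 for DUSP1. FOSB, with 79 counts in its lowest library, has the largest counting error of the members.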
